A study of Homo sapiens with 28 samples.

Results

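Clone 1.1 and clone 3.2 are TWIST1 knockout clones of MDST8, an established human colorectal cancer line with mesenchymal features, and were made by CRISPR-Cas9 with different guides. The comparison used the 3 RNA-seq libraries of each, 6 of the 18 libraries from MDST8 and of the 28 samples in the whole series. Members were chosen by library name alone: TG1_1 was read as guide TG1, clone 1.1, and TG3_2 as guide TG3, clone 3.2. No measured value entered the choice. The other MDST8 libraries came from unedited cells (WT) and from clones 2.2 (guide TG2), 3.5 and 3.6 (both guide TG3), with 3 libraries each. All cells were grown in DMEM with 10% FBS and all 5 clones carry the TWIST1 knockout, so the comparison asks how far cells that share this label, but not the guide or the founding cell, differ in their mRNA. Clone 1.1 is the single clone of guide TG1 and each line was grown from 1 founder, so the effects of guide and of founder cell cannot be told apart.

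TWIST1 is a basic helix-loop-helix transcription factor that pairs with E proteins, binds E-box sequences (CANNTG) and is known for driving epithelial-mesenchymal transition (EMT), in which epithelial junction genes are lost and matrix and motility genes are gained. Its mRNA can persist after a frameshift edit, so a read count does not by itself report the protein. A line grown from a single edited cell also carries whatever copy number and silencing state that cell had, which is why sister clones are usually compared with each other.

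Between the clones, 447 of 13706 tested genes were called different, 3.26% of those tested, with 232 higher in clone 1.1 (1.69%) and 215 higher in clone 3.2 (1.57%). To be called, a gene had to pass 0.58 in size on the log2 scale with an adjusted p under 0.05 (edgeR, quasi-likelihood, adjusted by Benjamini-Hochberg). Log2 fold changes are given as clone 1.1 minus clone 3.2, and levels as CPM, the count scaled to library size after TMM normalization. The genes that differed most included JUP and SDC2, higher in clone 1.1, and TMPRSS15 and TMEM233, which had almost no reads in clone 1.1. Most genes differed little: the median absolute log2 fold change was 0.095, and 95.8% of genes lay below 0.58 in size. Among the calls, 89 exceeded a log2 fold change of 1 and 95 fell below -1, and 23 in each direction passed 2 in size. Total counts ran from 18416590 to 22217009 over the 6 libraries. Nothing in the labels says that replicates A, B and C were separate cultures, so the p-values measure only the spread between these libraries.

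TWIST1 itself was read first. Its level was 38.8, 34.7 and 38.1 CPM in clone 1.1 (replicates A, B and C) and 50.9, 52.1 and 57.5 CPM in clone 3.2. Every library of clone 3.2 lay above every one of clone 1.1, an absence of overlap that held at 31.3% of tested genes in either direction. The means were 37.2 ± 2.18 and 53.5 ± 3.49 CPM (SD, n = 3 each), and WT cells, at 46.0 ± 6.06 CPM (SD, n = 3), lay between them. The log2 fold change was -0.53 (SE 0.07, edgeR adjusted p = 4.87e-07), which falls short of the fold threshold, so TWIST1 was not called. An exact two-sided permutation test on log2(CPM + 0.5) gave p = 0.10, the smallest value that 3 libraries against 3 allow. TWIST1 mRNA was therefore present in both clones, and counts over the whole gene (chr7:19020991-19117636, minus strand, hg38) do not read the edited site.

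SPON2, which encodes the secreted matrix protein spondin 2 and is the target the study followed, was lower in clone 1.1. It had 11, 17 and 6 counts in clone 1.1 against 36, 53 and 39 in clone 3.2, or 0.585, 0.798 and 0.316 CPM against 1.98, 2.38 and 1.88 CPM. Again no library of one clone reached those of the other. The log2 fold change was -1.85 (SE 0.30, edgeR adjusted p = 1.81e-05), and the exact two-sided permutation p was 0.10. WT cells had 7.43 ± 1.28 CPM (SD, n = 3), above both clones. Clones 2.2, 3.5 and 3.6 had means of 0.413, 3.02 and 4.52 CPM, so that clone 1.1 sat nearest clone 2.2, and clone 3.2 nearest clone 3.5.

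The sequences of regulatory DNA at 3 of the genes that differed are shown because TWIST1 binds E-boxes and the study has a TWIST1 peak list from WT MDST8 cells. The first is a stretch of 260 bases covering the strongest of 3 listed peaks within 3000 bp of the SPON2 5' end (chr4:1206293-1206552, hg38, plus strand printed, inside an intron, 3.2-fold enrichment, p-value 0.000234). The other sequences are RefSeq promoter windows of 300 bases, from 250 before to 50 after a start site (GRCh38.p14, gene strand, both genes on the minus strand), for TMPRSS15 (chr21:18403736-18404035) and for one of the listed starts of JUP (chr17:41785927-41786226). Capitals mark each CANNTG.

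SPON2 peak: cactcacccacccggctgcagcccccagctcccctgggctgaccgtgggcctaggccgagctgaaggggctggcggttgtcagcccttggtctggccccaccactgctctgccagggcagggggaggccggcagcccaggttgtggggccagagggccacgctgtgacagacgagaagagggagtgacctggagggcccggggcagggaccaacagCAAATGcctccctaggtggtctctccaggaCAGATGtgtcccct
TMPRSS15 promoter: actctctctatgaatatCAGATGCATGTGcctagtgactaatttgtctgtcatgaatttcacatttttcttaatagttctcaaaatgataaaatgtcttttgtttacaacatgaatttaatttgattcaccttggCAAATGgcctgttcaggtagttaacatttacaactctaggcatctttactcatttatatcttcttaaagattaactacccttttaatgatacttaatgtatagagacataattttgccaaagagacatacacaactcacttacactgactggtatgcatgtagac
JUP promoter: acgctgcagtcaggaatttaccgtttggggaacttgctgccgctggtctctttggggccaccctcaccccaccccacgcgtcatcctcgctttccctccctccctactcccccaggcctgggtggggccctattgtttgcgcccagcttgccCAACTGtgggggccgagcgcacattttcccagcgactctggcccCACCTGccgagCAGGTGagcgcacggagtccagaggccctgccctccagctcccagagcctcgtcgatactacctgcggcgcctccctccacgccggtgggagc

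The SPON2 stretch held 2 CANNTG matches, one of them CATCTG read on the other strand, and 8 CpG dinucleotides. A CATCTG on either strand was found in 12.9% of the first 260 bases of all RefSeq promoter windows, and any CANNTG in 63.7%. The TMPRSS15 window held 3 matches, again with CATCTG on the other strand, and it had 0 CpG dinucleotides. JUP had 3 CANNTG matches, none of them CATCTG, and 19 CpG dinucleotides in the window shown. The window of its other listed start (chr17:41786662-41786961) had 0 CANNTG and 23 CpG dinucleotides. Over 35116 windows of 300 bases, 14.7% had CATCTG on either strand and 68.7% had any CANNTG, and the median window had 14 CpG dinucleotides. Neither window shown overlapped a listed peak. The windows at the listed RefSeq starts of SPON2 (chr4:1208795-1209094, chr4:1173131-1173430 and chr4:1172534-1172833) are not shown. None of them overlapped a listed peak or held CATCTG on either strand. The paper tested an E-box by ChIP-qPCR and placed it upstream of the SPON2 start. Both primers of its adjacent control region c match the SPON2 window at chr4:1173131-1173430. The peak shown (chr4:1206293-1206552) lies elsewhere, near the GENCODE 5' end of the gene. Neither primer of region b, which holds the tested E-box, occurs in the stretch shown, so its CATCTG was not taken as that E-box. These matches are descriptions of letters only.

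Among protein-coding genes higher in clone 1.1 that passed the filter and reached a mean of 5 CPM there, the largest changes were at CSMD2, JUP and SDC2. JUP, which encodes plakoglobin, a plaque protein of desmosomes and adherens junctions, had 21.5, 22.4 and 23.2 CPM in clone 1.1 and 0.716, 1.12 and 1.01 CPM in clone 3.2. Its log2 fold change was 4.53 (SE 0.145, edgeR adjusted p = 1.23e-22). WT cells (1.09 CPM) and clones 2.2 (0.67 CPM) and 3.6 (0.377 CPM) sat at the level of clone 3.2, while clone 3.5 had 36.1 CPM. High JUP was thus seen in 2 of the 5 clones, 1 of guide TG1 and 1 of guide TG3.

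SDC2, the transmembrane heparan sulfate proteoglycan syndecan-2, had 36.2, 34.2 and 34.7 CPM in clone 1.1 against 2.09, 2.96 and 2.64 CPM in clone 3.2, a log2 fold change of 3.75 (SE 0.12, edgeR adjusted p = 1.23e-22). WT cells had 6.06 CPM, between the clones. CSMD2, a large membrane protein with CUB and sushi domains, had 8.35, 6.29 and 5.58 CPM against 0.11, 0.179 and 0.0962 CPM, with only 2 to 4 counts in each library of clone 3.2. Its log2 fold change was 5.62 (SE 0.33, edgeR adjusted p = 1.99e-15). Low CSMD2 was shared with clone 2.2 (0.138 CPM), whereas WT had 2.42 CPM and clones 3.5 and 3.6 had 7.36 and 16.1 CPM. CDH13, a cadherin held to the membrane by a lipid anchor, had 18.6, 20.2 and 20.3 CPM in clone 1.1 and 4.46, 3.45 and 3.65 CPM in clone 3.2 (log2 fold change 2.36, SE 0.11, edgeR adjusted p = 5.47e-18). WT had 15.6 CPM and clones 2.2, 3.5 and 3.6 had 16.8, 12.8 and 7.97 CPM, so clone 3.2 was the lowest of the groups.

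The other 8 of the 12 protein-coding genes with the largest positive change were CYTL1, a secreted cytokine-like protein (log2 fold change 3.24), RCAN2, an inhibitor of calcineurin (3.24), SIGLEC14, a sialic acid receptor of myeloid cells (2.87), ULK2, an autophagy kinase (2.36), MGAM, the brush border enzyme maltase-glucoamylase (2.15), TESPA1 (2.01), FGF13, an intracellular member of the FGF family (1.99), and FIBCD1, a receptor for acetylated sugars (1.96). All 12 had libraries that did not overlap and a mean of at least 5 CPM in clone 1.1, as the rule for naming required. SIGLEC14 shares long stretches with a neighbouring paralog, so its count is uncertain. FGF13 showed a low value that stood alone in clone 3.2, with 3.63, 5.29 and 4.04 CPM there, 17.9, 16.9 and 17.3 CPM in clone 1.1, 11 CPM in WT, and 34.4, 38.2 and 16.7 CPM in clones 2.2, 3.5 and 3.6.

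**Figure D1:**
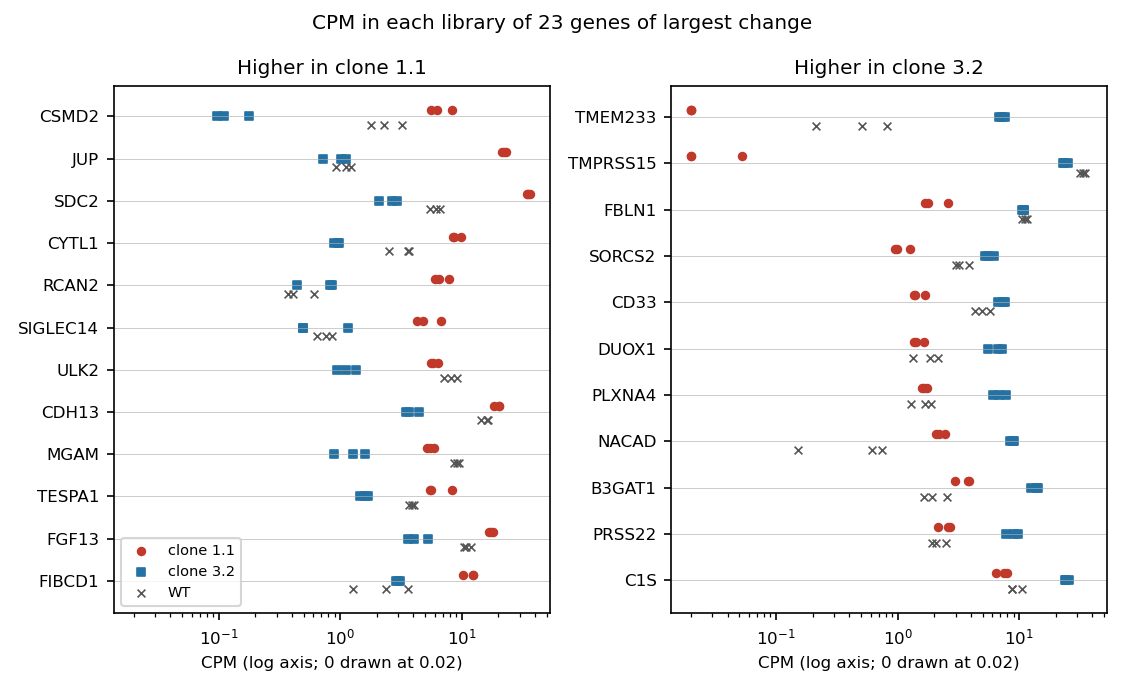
CPM on a log axis for protein-coding genes of largest change, 12 higher in clone 1.1 and 11 higher in clone 3.2, with 1 point per library for clone 1.1 (circles), clone 3.2 (squares) and WT (crosses); values of 0 are drawn at 0.02. The libraries of clones 1.1 and 3.2 separate at every gene, as the naming rule required, and WT falls near clone 3.2 at JUP and TMPRSS15 but near clone 1.1 at MGAM and DUOX1.

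Genes higher in clone 3.2 included 2 with almost no reads in clone 1.1. TMPRSS15 encodes enteropeptidase, the brush border protease that activates trypsinogen, and had 0, 0 and 1 counts in clone 1.1 against 423, 508 and 519 counts in clone 3.2. That is 23.3, 22.8 and 24.9 CPM in clone 3.2, a ratio of 1399 by summed counts, with a 95% exact binomial interval of 250.7 to 55290 that covers counting error only. Every other group expressed it: WT had 33.3 CPM and clones 2.2, 3.5 and 3.6 had 41.7, 11.5 and 20.5 CPM. The edgeR adjusted p was 1.64e-24. TMEM233, which encodes a small membrane protein, had 0 counts in each library of clone 1.1 and 132, 152 and 158 counts in clone 3.2. Against a floor of 3 counts per library it was at least 47.3-fold higher in clone 3.2. TMEM233 passed the filter on low counts through clones 3.2 and 3.6, where it was high, so its p-value would give no support and is left out. Clone 2.2 also had 0 CPM, WT and clone 3.5 had 0.511 and 0.461 CPM, and clone 3.6 had 5.96 CPM.

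FBLN1, the matrix glycoprotein fibulin-1, had 2.61, 1.69 and 1.79 CPM in clone 1.1 and 10.6, 10.8 and 11 CPM in clone 3.2 (log2 fold change -2.42, SE 0.13, edgeR adjusted p = 3.87e-16). WT matched clone 3.2 at 11.1 CPM, and the other clones ranged from 0.206 CPM (clone 2.2) to 63.3 CPM (clone 3.6). SORCS2, a sortilin family receptor, and CD33, a sialic acid receptor of myeloid cells, had log2 fold changes of -2.39 and -2.29. CD33 had 1.38, 1.36 and 1.68 CPM against 7.60, 6.72 and 7.40 CPM, while PTPRC and CD3E, which define blood cells, had no count in any of the 6 libraries.

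Also among the 12 were DUOX1, an oxidase that makes hydrogen peroxide (log2 fold change -2.14), PLXNA4, a semaphorin receptor (-2.05), NACAD (-1.97), B3GAT1, a glucuronyltransferase of the HNK-1 carbohydrate (-1.94), PRSS22, a secreted serine protease (-1.85), and C1S, a protease of the complement cascade (-1.74). C1S had 6.38, 7.98 and 7.53 CPM in clone 1.1 and 24.2, 23.7 and 25.7 CPM in clone 3.2. DUOX1 had 1.65, 1.41 and 1.37 CPM against 7.21, 6.72 and 5.58 CPM, and clone 3.2 stood above WT (1.77 CPM) and above the other clones, which had 0.447 to 1.17 CPM. PLXNA4 had the same arrangement, with 7.82, 6.10 and 6.78 CPM in clone 3.2 and 0.155 to 1.66 CPM as the means of all other groups.

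All 24 genes were called in the same direction with any single library left out and under every alternative that tested them. A filter on the geometric mean of RPM with no offset left 7 untested (SIGLEC14, MGAM, TMEM233, TMPRSS15, PLXNA4, NACAD and B3GAT1), since some library had no counts. On the log2 scale WT lay nearer clone 1.1 for 15 of the 24 and nearer clone 3.2 for 9. Noncoding genes were named by the same rule, 3 a direction. ENSG00000265702 was higher in clone 1.1, with 6.06, 6.95 and 5.26 CPM against 2 counts over the 3 libraries of clone 3.2, a ratio of 187.6 with a 95% exact binomial interval of 51.6 to 1555. LINC01854 (log2 fold change 1.33) and HLA-H (1.12) were also higher in clone 1.1, HLA-H being a pseudogene that shares reads with the class I HLA genes. GABRG3-AS1 (-2.84), ANKRD20A9P (-2.24) and TMEM132D-AS1 (-1.20) were higher in clone 3.2. The counting did not use strand, so reads of antisense genes and their partners cannot be told apart.

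**Figure D2:**
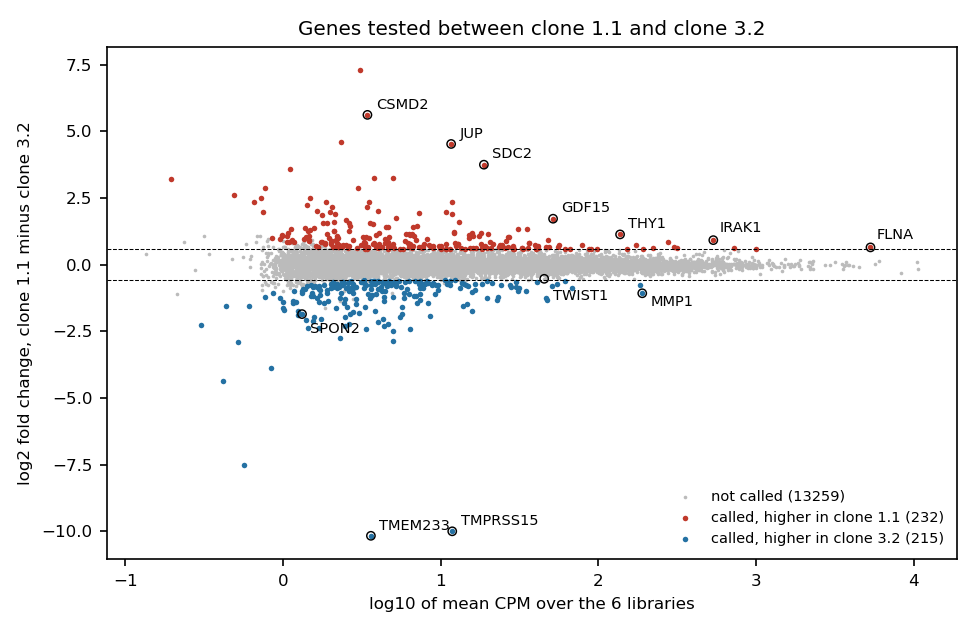
Log2 fold change (clone 1.1 minus clone 3.2) against log10 of the mean CPM of the 6 libraries for all 13706 tested genes, with called genes in colour, dashed lines at 0.58 and -0.58, and 12 genes circled. Calls thin out at high expression, TWIST1 lies at -0.53 just inside the lower line, and TMPRSS15 and TMEM233 lie near -10 because clone 1.1 had 1 and 0 counts.

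Calls were concentrated among weakly expressed genes. In the lowest quartile of genes by expression (up to 7.38 CPM) 308 of 3427 were called, 8.99%, against 95 (2.77%), 26 (0.759%) and 18 (0.525%) in the other quartiles in rising order. Protein-coding genes and lncRNAs were called at nearly the same share, 385 of 11924 (3.23%) and 46 of 1280 (3.59%). Among the most abundant genes that were called were FLNA, the actin cross-linker filamin A, and THY1, a surface glycoprotein of fibroblasts and stem cells.

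Set beside the other pairs, clones 1.1 and 3.2 had the fewest called genes of the 10 pairs of MDST8 clones. The other 9 pairs ran from 1208 (8.81%, clones 3.2 and 3.5) to 3013 (22%, clones 2.2 and 3.6), and clone 2.2 differed from clones 1.1, 3.2 and 3.5 at 1768 (12.9%), 1833 (13.4%) and 1217 (8.88%) genes. Pairs made with the same guide were not closer than this: clones 3.2 and 3.5, 3.2 and 3.6, and 3.5 and 3.6 had 1208, 1224 (8.93%) and 2147 (15.7%) called genes. Clone 1.1 differed from clones 3.5 and 3.6 at 1215 (8.86%) and 1308 (9.54%) genes. With DESeq2 the count for clones 1.1 and 3.2 was 424, against 1160 to 2981 for the other pairs, and with RLE factors or only the 6 libraries of a pair it was 448 each, against at least 1208 and 1207. The pairs share libraries with each other, and no test was made of the difference between counts.

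**Figure D3:**
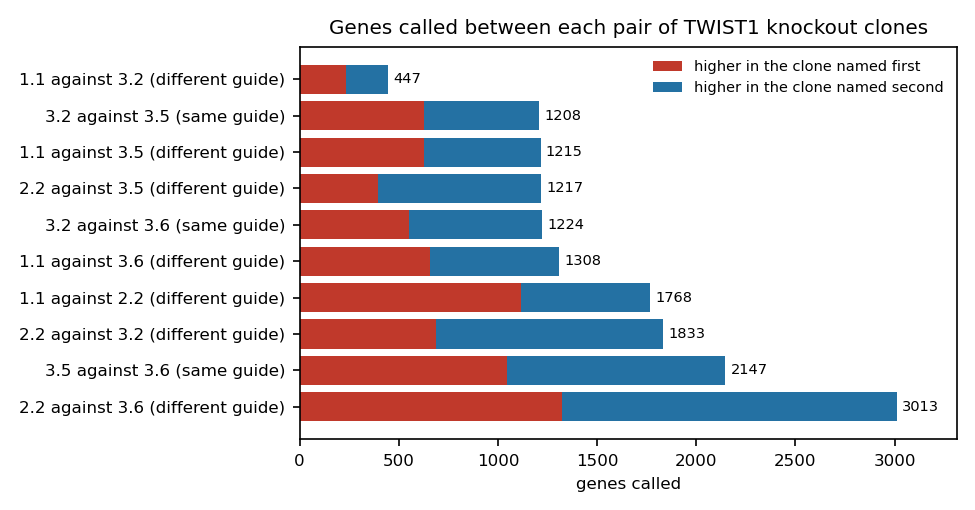
Number of genes called between each pair of the 5 clones, with red for genes higher in the clone named first and blue for the clone named second. Clones 1.1 and 3.2, made with different guides, have 447 called genes, and every other pair has at least 1208.

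For the 447 called genes the other groups were set beside the pair, using log2(CPM + 0.5). WT lay between the clones for 164 genes, above both for 119 and below both for 164. The share between was 36.7%, against 12.2% of all tested genes, which need not have the gap that a call requires. WT was nearer clone 3.2 for 264 (59.1%) and nearer clone 1.1 for 183 (40.9%), where over all tested genes the shares were 56.5% and 43.5%. Clones 3.5 and 3.6, which share guide TG3 with clone 3.2, were both nearer clone 3.2 for 149 of the called genes (33.3%) and both nearer clone 1.1 for 110 (24.6%), against 24.9% and 24.98% of all tested genes. Among genes higher in clone 3.2 these counts were 84 and 44 of 215. Among genes higher in clone 1.1 they were 65 and 66 of 232. Clone 2.2 was nearer clone 1.1 for 224 and nearer clone 3.2 for 223.

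A stricter reading asked whether the means of clones 3.2, 3.5 and 3.6 all lay on one side of those of clone 1.1, clone 2.2 and WT. That held for 5 of the 24 genes of largest change: CYTL1, ULK2 and CDH13 were lower in all 3 clones of guide TG3, and B3GAT1 and PRSS22 were higher. PRSS22 had 8.91, 17.2 and 50.03 CPM in clones 3.2, 3.5 and 3.6 and 2.17 to 4.198 CPM in the other groups, and B3GAT1 had 13.6, 13.3 and 5.2 CPM against 0.0529 to 3.53 CPM. Over all 447 called genes the count was 70 (15.7%), with 47 higher and 23 lower in the TG3 clones, against 1220 of all 13706 (8.90%). A call already sets the order of clones 1.1 and 3.2, which the genes at large do not have, so these shares are descriptions and were not tested.

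**Figure D4:**
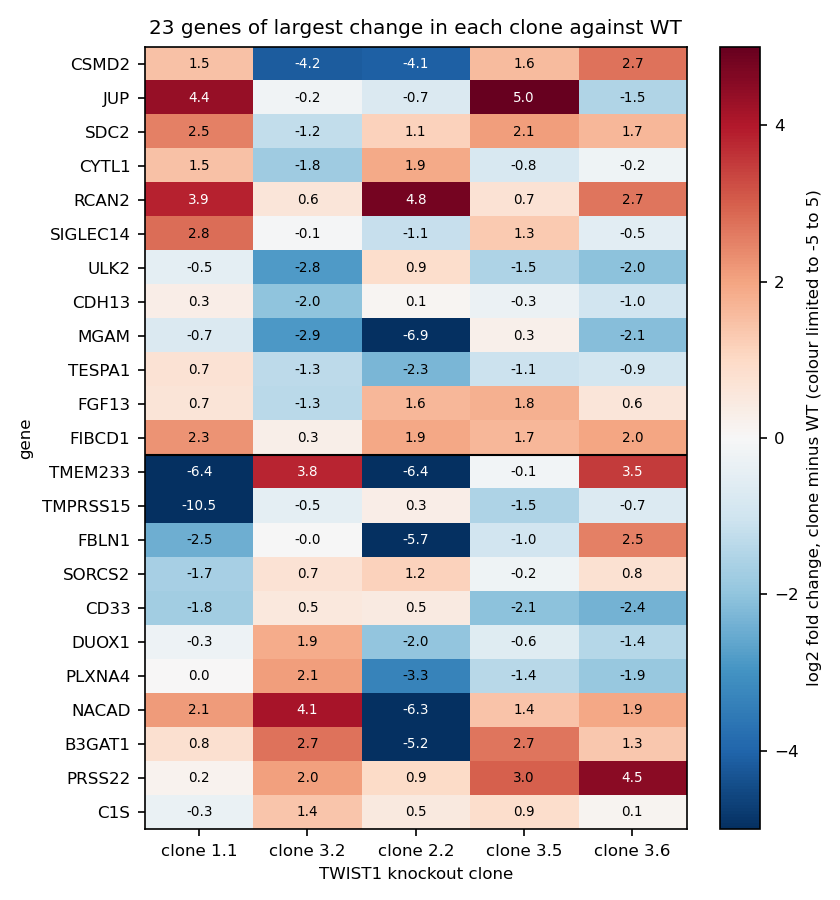
Log2 fold change of each clone against WT (colour and printed value, colour limited to -5 to 5) for the 12 genes higher in clone 1.1 (above the line) and 11 higher in clone 3.2 (below it). JUP is high in clones 1.1 and 3.5, TMPRSS15 is lost in clone 1.1 alone, and B3GAT1 and PRSS22 are higher in clones 3.2, 3.5 and 3.6 than in clones 1.1 and 2.2.

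The transcription factors of EMT and factors listed with them did not differ past the thresholds. Tested members of the list include the E proteins TCF3, TCF4 and TCF12, the inhibitors ID1, ID2 and ID3, and the epithelial factor GRHL1. Its counts and median therefore mix these with factors that drive EMT. Of 21 listed, 12 were tested and 0 were called by edgeR, with log2 fold changes from -0.53 (TWIST1) to 0.30 (PRRX1) and a median of 0.12, beside a median of 0.001 over all tested genes. DESeq2 also called 0, while 8 of the 12 had an unadjusted p below 0.05 and 5, TWIST1 among them, an adjusted p below it. Over all tested genes 3.26% were called and 16.6% had an adjusted p below 0.05. SNAI2 had means of 119 and 128 CPM, ZEB1 44.05 and 41.2 CPM, and ZEB2 112 and 99.6 CPM in clones 1.1 and 3.2.

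Mesenchymal and epithelial markers gave calls at single genes. Of 17 tested mesenchymal genes 3 were called (17.6%, against 3.26% of all tested genes): THY1 (188.8 against 85.8 CPM, log2 fold change 1.14, SE 0.04, edgeR adjusted p = 8.56e-22) and PDGFRB, a growth factor receptor (2.85 against 1.72 CPM, 0.74), were higher in clone 1.1, and MYL9, a myosin light chain of contractile cells (1.26 against 4.32 CPM, -1.78), was higher in clone 3.2. PDGFRB was no longer called without replicate B of clone 1.1 (0.65) or replicate B of clone 3.2 (0.55). Vimentin (VIM) was abundant in both, at 3330 to 3370 CPM and 3721 to 3774 CPM, with a log2 fold change of -0.16. The labels give colon as the tissue, yet 12 of 31 markers of intestinal epithelium, among them VIL1, CDX1 and HNF4A, had no count in any of the 6 libraries and 24 stayed under 1 CPM in all of them. Of the 6 tested, JUP alone was called. DSP, the desmosomal plaque protein that works with JUP, ran the other way, at 8.26 against 12 CPM (log2 fold change -0.54), and was not called, except without replicate A of clone 1.1 or without library size normalization.

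Summed marker levels differed between the clones. COL1A1 and THY1 dominate the summed level of 8 listed fibroblast genes. The sum was 1359 to 1529 CPM in the libraries of clone 1.1 and 906 to 976 CPM in those of clone 3.2. Of the 5 tested, these 2 were called higher in clone 1.1, against 1.69% of all tested genes called that way. Without replicate A of clone 1.1 or replicate B of clone 3.2, only 1 (THY1) was called. THY1 also counts in the mesenchymal list and COL1A1 among the collagens. The mesenchymal list summed to 18020 to 18310 and 19450 to 20540 CPM, and the intestinal list to 237 to 243 and 215 to 218 CPM. Single genes weigh heavily in these sums: FN1 had 7354 against 9208 CPM and JUP 22.4 against 0.949 CPM. At an edgeR adjusted p below 0.05, 6 of 17 tested mesenchymal genes were higher in clone 1.1 and 4 in clone 3.2. For the 6 tested intestinal genes these counts were 1 (JUP) and 2. Over all tested genes the shares were 8.13% and 8.46%. The part of the differences between sums in the results was not tested. All 8 markers of blood cells and all 7 of endothelium stayed under 1 CPM. Each line was grown from 1 founder, and bulk libraries cannot tell a change in some of its cells from a change in all.

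Matrix genes changed in both directions. Of 21 collagens tested 4 were called (19.05%, against 3.26% of all tested genes). COL1A1 (1207 against 801 CPM, log2 fold change 0.59) and the basement membrane chain COL4A1 (384 against 248 CPM, 0.63) were higher in clone 1.1, while COL10A1 (-1.34) and COL9A3 (-2.36) were higher in clone 3.2. Both COL1A1 and COL4A1 lay close to the threshold, and without replicate A of clone 1.1 they had 0.54 and 0.577 and were not called, nor was COL1A1 without replicate B of clone 3.2 (0.565). Of 19 matrix proteases and inhibitors 4 were called (21.05%). MMP1, interstitial collagenase, had 106, 132 and 129 CPM in clone 1.1 and 264, 245 and 263 CPM in clone 3.2 (log2 fold change -1.07, SE 0.06, edgeR adjusted p = 8.76e-16), and MMP15, a membrane-bound protease, had 26.9 against 67.4 CPM (-1.32). MMP24 (1.03) and 1 more were higher in clone 1.1. None of 20 integrin genes was called by edgeR or DESeq2, though 12 had an unadjusted p below 0.05 in edgeR and 1 was called without replicate B of clone 1.1.

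Adhesion and guidance genes likewise split. Of 9 tested genes in the cadherin list 3 were called, against 3.26% of all tested genes. CDH13, whose lipid anchor sets it apart from classical cadherins, was the one called higher in clone 1.1. CDH6 (136 against 232 CPM, log2 fold change -0.78) and CDH3 were higher in clone 3.2. CDH3 had 2 counts in all in clone 1.1 against 50 in clone 3.2. N-cadherin (CDH2), the cadherin most often used to mark EMT, had a log2 fold change of 0.07 and was not called. Axon guidance genes gave 6 calls of 38 (15.8%): PLXNA4, PLXNA2 (-1.42) and the ligand NTN1 (-1.25) were higher in clone 3.2, and 3 were higher in clone 1.1, among them PLXNA3 (0.75), which lies in the block of chromosome X described below.

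GDF15, a stress-induced member of the TGF-beta family, had 78.5, 83.0 and 76.3 CPM in clone 1.1 and 25.6, 21 and 25.5 CPM in clone 3.2 (log2 fold change 1.73, SE 0.07, edgeR adjusted p = 8.94e-20). Of 25 tested genes of TGF-beta and BMP signalling 4 were called higher in clone 1.1 (1.69% over all genes), and BMP6 (-1.62) was called higher in clone 3.2 (1.57% over all genes). The chemokine CCL2 had 359 against 197 CPM (log2 fold change 0.87), one of 3 called among 18 genes of NF-kB feedback and chemokines, against 3.26% of all genes. The others, CXCL8 (0.60) and IL32 (0.58), were no longer called without replicate B of clone 1.1 (0.51 and 0.558), nor was IL32 without replicate C of clone 1.1 (0.548) or replicate B of clone 3.2 (0.533). Interferon-stimulated genes had 3 calls of 27, all higher in clone 1.1, where 1.69% of all genes were called that way: OAS2, a sensor of double-stranded RNA (18.7, 20.8 and 19.6 CPM against 6.83, 5.74 and 6.78 CPM, log2 fold change 1.62), IFIT2 (0.72) and GBP1 (0.65). Without replicate A of clone 3.2, GBP1 had 0.55 and was not called. At any fold, 14 of the 27 had an adjusted p below 0.05 and a higher level in clone 1.1, against 8.13% of all tested genes, and the list's median was 0.27.

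Genes of mitosis and DNA replication showed small differences with a single sign. None of 41 tested was called by edgeR or DESeq2, but 34 had an unadjusted p below 0.05 in edgeR, 39 had a log2 fold change below 0, the median was -0.15, and 27 had an adjusted p below 0.05 and a lower level in clone 1.1, against 8.46% of all tested genes. MKI67, a proliferation marker, had 402, 369 and 356 CPM in clone 1.1 and 459, 446 and 456 CPM in clone 3.2 (log2 fold change -0.27, edgeR adjusted p = 3.93e-05). Neither list nor gene reached the fold threshold.

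Of the 27 genes that the study named as TWIST1 targets, chosen partly on these libraries and so not independent of them, 3 were called (11.1%, against 3.26% of all tested genes). At any fold, 7 (25.9%) had an adjusted p below 0.05, against 16.6% of all tested genes. Of 13 genes named as higher after loss of TWIST1, SLAIN1, a microtubule-associated protein, was the one called, at 48.1, 48.3 and 53 CPM in clone 1.1 and 27.3, 30.3 and 32.7 CPM in clone 3.2 (log2 fold change 0.72, SE 0.07, edgeR adjusted p = 2.94e-09). The other 12 (KCNAB2, PODXL2, SLC12A2, PCDHGC3, MIR3142HG, TNFRSF21, TNFAIP3, ACTR3C, PDCD4, MGMT, PPM1N and PIK3IP1) ran from -0.40 (PODXL2) to 0.11 (MIR3142HG). Of 14 named as lower, SPON2 was called as above and TNS1, a focal adhesion protein, was higher in clone 1.1 (6.06 against 3.77 CPM, log2 fold change 0.69). TNS1 was not called without replicate A of clone 1.1 (0.57) or replicate B of clone 3.2 (0.50). CDC20, F3, SYNE1, LPAR1, SFXN2, SLC7A1, FOXL1, SLC7A5, DBF4B, RFX2, ASF1B and CENPM ran from -0.40 (F3) to 0.16 (SLC7A5). The median was -0.09 for the first list and -0.04 for the second.

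Further lists changed at few members. HOX genes gave 5 calls of 23, against 3.26% of all tested genes, all at an absolute log2 fold change under 0.7, with HOXB9 (0.61) and HOXB13 (0.59) higher in clone 1.1 and 3, among them HOXA5 (-0.63) and HOXD9 (-0.66), higher in clone 3.2. HOXB9 kept its call when any library was left out. HOXB13, HOXA5 and HOXD9 lost theirs without replicate B of clone 1.1 (0.54, -0.62 and -0.66) and without replicate C of clone 1.1 (0.55, -0.47 and -0.49), and also without replicate A, B or C of clone 3.2 in at least 1 case each, so that the list's count fell to 1 without replicate B of clone 1.1 and to 2 without replicate C. The imprinted gene NDN was 27.7 against 12.3 CPM (log2 fold change 1.17). Zinc finger genes gave 6 calls of 435 (1.38%), led by ZNF208 (-2.75), and solute carriers 4 of 184 (2.17%, and 2 calls without replicate A of clone 1.1), both under the share over all genes. In 19 of the 52 lists no tested member was called by edgeR or DESeq2. Among them were DNA methylation machinery (15 tested), Polycomb and Trithorax (24) and targets and feedback genes of WNT (16). DNA methylation machinery had 1 call without replicate C of either clone. Hypoxia and glycolysis (29), cholesterol and fatty acid synthesis (32) and MHC class I presentation (18) were others. At an edgeR adjusted p below 0.05, 7 of the 18 MHC class I genes were higher in clone 1.1 and 1 in clone 3.2, with a median of 0.16. For the 32 cholesterol and fatty acid genes these counts were 3 and 8, with a median of -0.09. Over all tested genes the shares were 8.13% and 8.46%.

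Position along the chromosomes separated a few blocks from the rest. Over 12527 windows of 51 tested genes in a row, the running median of log2 fold change lay between -0.063 and 0.067 from the 5th to the 95th percentile, and 132 windows exceeded 0.2 in size, all on chromosomes 7, 17 and X. Block ends were drawn after these values were seen, so no test was made of them. The highest running median, 0.44, was at the end of the long arm of chromosome X. From IRAK1 to the last tested gene (chrX:154010506-155943769) 29 of 31 tested genes had a positive log2 fold change, 27 of them with an adjusted p below 0.05, and 14 (45.2%) were called higher in clone 1.1. The median was 0.56, or 1.48-fold, against -0.01 in the rest of the chromosome. FLNA had 6741, 6649 and 6082 CPM in clone 1.1 and 4179, 3900 and 4316 CPM in clone 3.2 (log2 fold change 0.65, SE 0.04, edgeR adjusted p = 1.17e-14). IRAK1, a kinase of Toll-like receptor signalling, had 0.92, GAB3 1.56 and the ribosomal gene RPL10 0.64. Median log2 fold changes of the block against WT were 0.46 in clone 1.1 and between -0.13 and -0.06 in the other 4 clones.

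The end of the long arm of chromosome 18 ran the other way. From PTGR3 to the last tested gene (chr18:75195113-80247514) all 16 tested genes were lower in clone 1.1, 15 with an adjusted p below 0.05, and 7 (43.8%) were called, with a median of -0.58. PTGR3, a prostaglandin reductase, had 23, 19.7 and 20.2 CPM in clone 1.1 and 40.6, 41.6 and 41.0 CPM in clone 3.2 (log2 fold change -0.97), and HSBP1L1 and MBP had -1.09 and -0.87. Against WT the block's median was -1.002 in clone 1.1 and -0.44 to -0.27 in the other clones, which had -0.32 to -0.25 over the rest of chromosome 18, where clone 1.1 had -0.26. The running median of 51 genes stops before the end of a chromosome, and a median of 25 genes reached -0.42 here and 0.57 on chromosome X.

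TWIST1 lies in the third block, the first 60 Mb of chromosome 7. There 192 of 226 tested genes were lower in clone 1.1, 117 of them with an adjusted p below 0.05, but the differences were small: the median was -0.20 and 8 genes (3.54%) were called, close to the 3.26% over all genes. The rest of the chromosome had a median of 0.04. Of the 226 genes, 11 had a log2 fold change below the -0.53 of TWIST1. Clones 1.1 and 2.2 had medians of -0.17 and -0.33 against WT in the block, while clones 3.2, 3.5 and 3.6 had 0.03 to 0.05. SNX10, a sorting nexin, was called there at -2.22 and NACAD at -1.97, and DNAH11, a dynein heavy chain, at 1.89 in the other direction. On chromosome 17, the stretch from OSBPL7 to PDK2 had a median of 0.25 over 43 genes, of which 38 were positive and 3 were called, among them HOXB9 and HOXB13. The stretch from ALDH3A2 to TNFAIP1 had a median of 0.31, with all 18 genes positive and 4 called (22.2%), and that from ZNF286B to ULK2, which overlaps it, had 0.22 over 13 genes, with 2 called (15.4%). The blocks on chromosomes X, 18 and 7 together held 29 of the 447 calls (6.49%), and outside them 3.11% of genes were called. Copy number was not measured, and its part in these values was not tested.

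**Figure D5:**
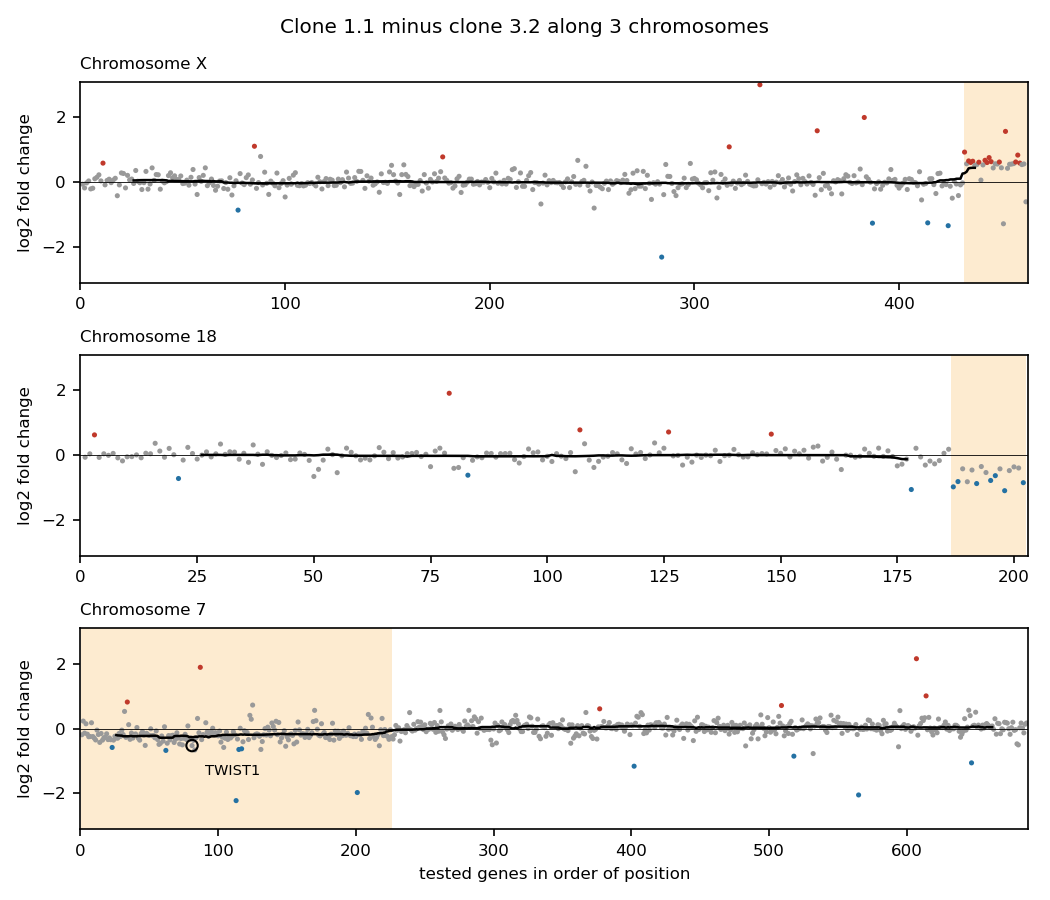
Log2 fold change (clone 1.1 minus clone 3.2) of tested genes in order along chromosomes X, 18 and 7, with red and blue for genes called higher in clone 1.1 and in clone 3.2, the running median of 51 genes as a line, and the 3 blocks shaded; values past 3 in size are drawn at 3. The Xq end sits near 0.56, the 18q end near -0.58, and the first 60 Mb of chromosome 7, with TWIST1 circled, near -0.20.

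TWIST1 peaks near the gene start were counted last. A listed peak lay within 3000 bp of the 5' end of 161 of 232 genes higher in clone 1.1 (69.4%, 95% exact binomial interval 63.0 to 75.3) and of 168 of 215 genes higher in clone 3.2 (78.1%, 72.0 to 83.5), against 76.5% of all tested genes. Intervals treat genes as independent, which they are not. The list comes from 1 ChIP library of WT cells with 338877 peaks at a lenient threshold, so most genes have one. Among the 24 genes of largest change 14 had a peak, JUP, SDC2 and TMPRSS15 among them and TMEM233 and FBLN1 not. The peak counted for TMPRSS15 lies at the GENCODE 5' end, which is upstream of the RefSeq start shown above.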

How the data were processed

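RNA-seq counts of fragments per gene were deposited by the authors without normalization for each MDST8 library. Reads had been trimmed with Trim Galore 0.6.6, aligned to hg38 with HISAT2 2.1.0 and counted on GENCODE genes with featureCounts 2.0.0, without using strand, per the submitters' processing notes and the file headers. Peaks were deposited by the authors with a fold enrichment (ratio) and a -log10 p-value from MACS2 2.2.7.1. No column of values was left unmatched, and 62639 of 62703 genes matched GENCODE v44 for symbol and biotype. Exon length was used only in a supporting table.

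Genes were kept at a geometric mean of at least 1 RPM (taken over RPM + 1, then minus 1) in the 18 MDST8 libraries, whose totals ran from 17252883 to 22217009. Counts were normalized by TMM and fitted together with edgeR 4.0.16 (R 4.3.3), which lets all groups share an estimate of the spread. A zero was set against a floor of 3 counts per library. On counts simulated for this comparison over 13706 genes, 96% of 100 genes changed by a log2 fold of 1 and 100% of 100 changed by 2 were called, with 2 unchanged genes called.

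Genes were named as follows: TWIST1 and SPON2, the 12 protein-coding and 3 noncoding genes of largest change in each direction with a mean of at least 5 CPM and no overlap of libraries, up to 3 called members of each list with all members of the study's target lists, and the leading genes of the blocks. Other genes were named after their values were seen, and some that the rule picks are not reported here. The members and lists were chosen with earlier results of these data known. Alternatives were DESeq2 1.42.0, limma 3.58.1 in 3 forms, RLE and upper-quartile factors, 3 other filters, only the 6 libraries, a replicate block and leaving out each library. LoVo files were not used. TWIST1 guide sequences are not shown.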

Additional observations from a re-analysis of the deposited data

Results flagged for a closer look

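Between clone 1.1 and clone 3.2, 23 genes differed past the thresholds while each clone's own difference from WT was called in the opposite direction, 13 of them higher in clone 1.1 and 10 higher in clone 3.2. The contrast between the clones is the test of that difference. Both comparisons use the same 3 WT libraries, so the WT level, which lies between the clones at these genes, is shared. Of the 23, 13 are genes named by the rules or singled out here.

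Genes with a positive log2 fold change between the clones (clone 1.1 minus clone 3.2) were ENSG00000265702 (7.29), CSMD2 (5.62), TMEM255A (4.602), SDC2 (3.75), MGAT4A (3.59), CYTL1 (3.24), TESPA1 (2.01), FGF13 (1.99), OAS2 (1.62) and GAB3 (1.56). CSMD2 stood 1.47 above WT in clone 1.1 and -4.15 from it in clone 3.2, and SDC2 stood 2.53 above and -1.22 from it. TMEM255A, a membrane protein, had 4.52 CPM in clone 1.1, 0.184 CPM in clone 3.2 and 0.445 CPM in WT. MGAT4A, a glycosyltransferase of N-glycan branching, had 2.04, 0.171 and 0.72 CPM in the same order.

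Genes with a negative fold change were TMEM233 (-10.16 as fitted, a value that depends on the prior count because clone 1.1 had no counts), ZNF208 (-2.75) and SORCS2 (-2.39). ZNF208, a zinc finger protein, had 0.585 CPM in clone 1.1, 4.04 CPM in clone 3.2 and 1.21 CPM in WT.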

How the results depend on the processing

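Of the 447 calls, 302 held with each of the 6 libraries left out in turn and 258 under all 11 other alternatives (the 36 that a filter with no offset left untested count as not held), and no call turned direction. DESeq2 kept 423 of the 447. Without library size normalization (limma on log2(count + 1)), genes higher in clone 1.1 fell to 154 and those higher in clone 3.2 were 208, a share of 42.5% against 51.9%, with the median of all genes shifted by -0.049. With no filter, 324 genes were higher in clone 3.2. The replicate block gave 229 and 215. Libraries of the same letter were not more alike between the clones (r of deviations -0.071 to 0.105) than those of different letters (up to 0.146). These few values cannot exclude a batch shared by a letter, which the labels do not describe. The block changed neither TWIST1 (-0.53) nor SPON2 (-1.85). Without 1 library, 215 to 235 genes were higher in clone 1.1 and 192 to 209 in clone 3.2. TWIST1 ran from -0.57 to -0.47 and was not called in any fit, and SPON2 ran from -2.20 to -0.98 and was called in all. Left out after the data were seen, the 3 chromosome blocks took the counts to 216 and 202.

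At a stricter p-value of 0.001, peaks lay near 21.98% of genes higher in clone 1.1, 27.9% of those higher in clone 3.2 and 28.3% of all tested, and a window of 1000 bp gave 42.7%, 51.6% and 53.4%. Target genes near 0 changed sign: without normalization TNFRSF21 had -0.005, SYNE1 -0.001 and DBF4B -0.044, and DBF4B had -0.001, -0.009 and -0.004 with upper-quartile factors, no filter and filterByExpr. With 1 library left out, TNFRSF21 ran from -0.015 to 0.087, ACTR3C from -0.182 to 0.031, MGMT from -0.047 to 0.056, SYNE1 from -0.005 to 0.082, SFXN2 from -0.131 to 0.037, SLC7A1 from -0.101 to 0.005, FOXL1 from -0.089 to 0.108 and DBF4B from -0.075 to 0.052. None was called in any fit. The cause of these changes was not tested.

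Depth limits the lowest genes: 3 counts are 0.134 to 0.165 CPM in these libraries.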

Other observations

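Some genes with clear differences fell below the filter on low counts, because it averages over all 18 libraries, and were tested with edgeR's filterByExpr filter instead. They were chosen after their values were seen. STARD8, a GTPase-activating protein encoded on chromosome X, had 6.54, 8.31 and 6.84 CPM in clone 1.1 and 0 counts in every library of clone 3.2. Against a floor of 3 counts per library it was at least 48.9-fold higher in clone 1.1. It passed the filter through clone 1.1 alone, so its p-value would give no support and is left out. WT and clone 2.2 had means of 0.0678 and 0.0529 CPM, and clones 3.5 and 3.6 had 0 counts, so that clone 1.1 was the one group with more than a few reads.

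FGFR2, a receptor tyrosine kinase of the FGF pathway, had 52, 91 and 56 counts in clone 1.1 and 6, 3 and 4 in clone 3.2 (log2 fold change 3.93, edgeR adjusted p = 1.27e-10). It was also read in clone 3.5 (4.54 CPM), the other clone with high JUP, and was low in WT (0.189 CPM), clone 2.2 (0.55 CPM) and clone 3.6 (0.0625 CPM). MACROH2A2, a histone variant, had 2.34, 2.39 and 2.53 CPM in clone 1.1 and 0.0551, 0.0896 and 0.0481 CPM in clone 3.2, with 0.50 CPM in WT. HMX3, a homeobox factor, ran the other way, with 0, 1 and 0 counts in clone 1.1 against 40, 50 and 48 in clone 3.2, and 2.93 CPM in WT. By summed counts the ratio for HMX3 was 133.1 with a 95% exact binomial interval of 23.5 to 5296.

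EGR1, an immediate-early gene that follows MAPK activity, varied within the clones as well as between them. It had 27.9, 31.1 and 10.4 CPM in clone 1.1 and 59.7, 46.2 and 34.1 CPM in clone 3.2. edgeR called it (log2 fold change -0.99, adjusted p = 0.00145), while DESeq2 (-1.01) and limma without library size normalization (-1.18) did not.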
